A study of Mus musculus with 6 samples.

Results

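This report describes 32 marker genes of endothelial cells, the cells that line blood vessels, in liver and liver tumours of mice. They were chosen by symbol, from lists of known liver sinusoidal markers (10 genes) and general vascular markers (22 genes), among the 37991 genes counted. All 32 passed the filter on low counts and are among the 17558 genes tested.

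RNA was sequenced from 6 tissue samples of mice aged 35 weeks, which had been on a high-fat diet during 27 weeks. All mice carried TgAlbCre, a transgene that makes Cre recombinase from the albumin promoter, which is active in hepatocytes, so Cre was not directed at endothelial cells. Control livers carried TgAlbCre alone, whereas KAP1-deleted livers and tumours came from TgAlbCreKap1lox mice, in which Cre can also inactivate Kap1 (gene symbol Trim28). Each of the 3 groups held 2 libraries from 2 mice, and by the mouse codes the tumour and the KAP1-deleted liver that carry 1 replicate number shared a mouse, so the design held 4 mice. The labels do not say whether several tumours of a mouse were pooled, they give all libraries the same batch, and their extraction text speaks of cell lines although each sample is labelled as tissue.

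Liver sinusoids are lined by an unusual endothelium. Its cells are perforated by fenestrae, sit on little basement membrane and clear waste from the blood through scavenger receptors such as the stabilins and the mannose receptor. Endothelium of continuous capillaries and larger vessels instead has sealed junctions and surface proteins such as CD34, and endothelium in liver tumours is known to gain such capillary features.

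Genes held 39723997 to 62178752 counts per library, and the 32 markers held 30480 to 57993 of them, or 0.0743% to 0.0933%. The lowest count of any marker in any library was 26, for Sox18 in tumour 2. Trim28, the targeted gene, stood at 32.5 and 35.9 CPM (counts scaled to the library's effective size) in control livers, 5.06 and 6.02 CPM in the KAP1-deleted livers and 5.22 and 4.59 CPM in tumours. Its level was thus low in every library labelled as deleted, with a log2 difference of -2.63 ± 0.19 (SE) between KAP1-deleted and control liver (edgeR adjusted p = 0.00393). Hepatocyte markers were abundant in all 6 libraries, at a summed level of 92059 and 100232 CPM in the control livers, 80617 and 91692 CPM in the KAP1-deleted livers, and 32129 and 50429 CPM in tumours.

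The promoters of 3 markers on which the comparisons turn are shown first, because Clec4g and Eng were lower and Cd34 was higher in tumours. Each run is the 250 bases before the start of the gene in RefSeq on GRCm38.p6, read 5′ to 3′ on the gene's strand. Clec4g (ENSMUSG00000074491) lies at chr8:3720652-3720901 on the minus strand, Eng (ENSMUSG00000026814) at chr2:32646345-32646594 on the plus strand and Cd34 (ENSMUSG00000016494) at chr1:194938571-194938820 on the plus strand. Capitals mark AGGAAG or its reverse complement CTTCCT, a core that ETS transcription factors such as ERG and FLI1, which act in endothelium, can bind.
Clec4g: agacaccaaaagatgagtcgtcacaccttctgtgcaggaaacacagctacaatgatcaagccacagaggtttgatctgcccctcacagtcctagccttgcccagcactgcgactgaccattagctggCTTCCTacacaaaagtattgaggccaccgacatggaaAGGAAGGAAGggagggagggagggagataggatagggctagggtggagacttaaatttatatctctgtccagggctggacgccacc
Eng: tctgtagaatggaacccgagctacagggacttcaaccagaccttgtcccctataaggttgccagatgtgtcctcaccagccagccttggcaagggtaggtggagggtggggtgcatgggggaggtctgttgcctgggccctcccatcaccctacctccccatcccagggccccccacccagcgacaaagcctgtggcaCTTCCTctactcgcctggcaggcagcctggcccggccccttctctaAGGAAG
Cd34: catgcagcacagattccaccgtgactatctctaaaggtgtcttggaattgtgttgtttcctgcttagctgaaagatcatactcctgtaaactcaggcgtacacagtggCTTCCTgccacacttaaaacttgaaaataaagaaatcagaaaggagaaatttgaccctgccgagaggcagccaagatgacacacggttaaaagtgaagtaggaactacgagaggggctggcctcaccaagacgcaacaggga

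The stretches hold 3 matches in Clec4g, of which the last pair overlaps, 2 in Eng and 1 in Cd34, so the motif was present in promoters of genes that moved in opposite directions. RefSeq promoters of 300 bases (250 before and 50 after the start) were matched for 20 of the 32 markers, with 24 starts. AGGAAG on either strand was in 15 of those 24 promoters (62.5%), against 35.35% of all 32851 mouse promoters of the same length. The other core, CGGAAG, was in 2 of 24 (8.333%, against 16.85%). The GATA site AGATAA was in 2 of 24 (8.333%, against 11.18%), and the TATA box TATAAA was in 3 of 24 (12.5%, against 13.62%). These are descriptions of letters in a window, and no binding was measured.

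Levels were first compared between genes within control liver, per kilobase of merged exons (GRCm38 annotation). The water channel gene Aqp1 stood highest at 34.2 CPM per kb, followed by Clec4g at 18.9, Mrc1 at 16.4, Ptprb at 11.3 and Stab2 at 10.4. At the other end were Cd34 at 0.251 CPM per kb, Nos3 at 0.448 and Emcn at 0.525. Aqp1 is also known in bile duct cells, so its level is not that of endothelium alone. In tumours Cd34 stood at 0.864 CPM per kb and Emcn at 1.09, while Clec4g stood at 7.54 and Aqp1 at 19.6. The order of neighbours such as Ptprb and Stab2 was not tested.

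**Figure D1:**
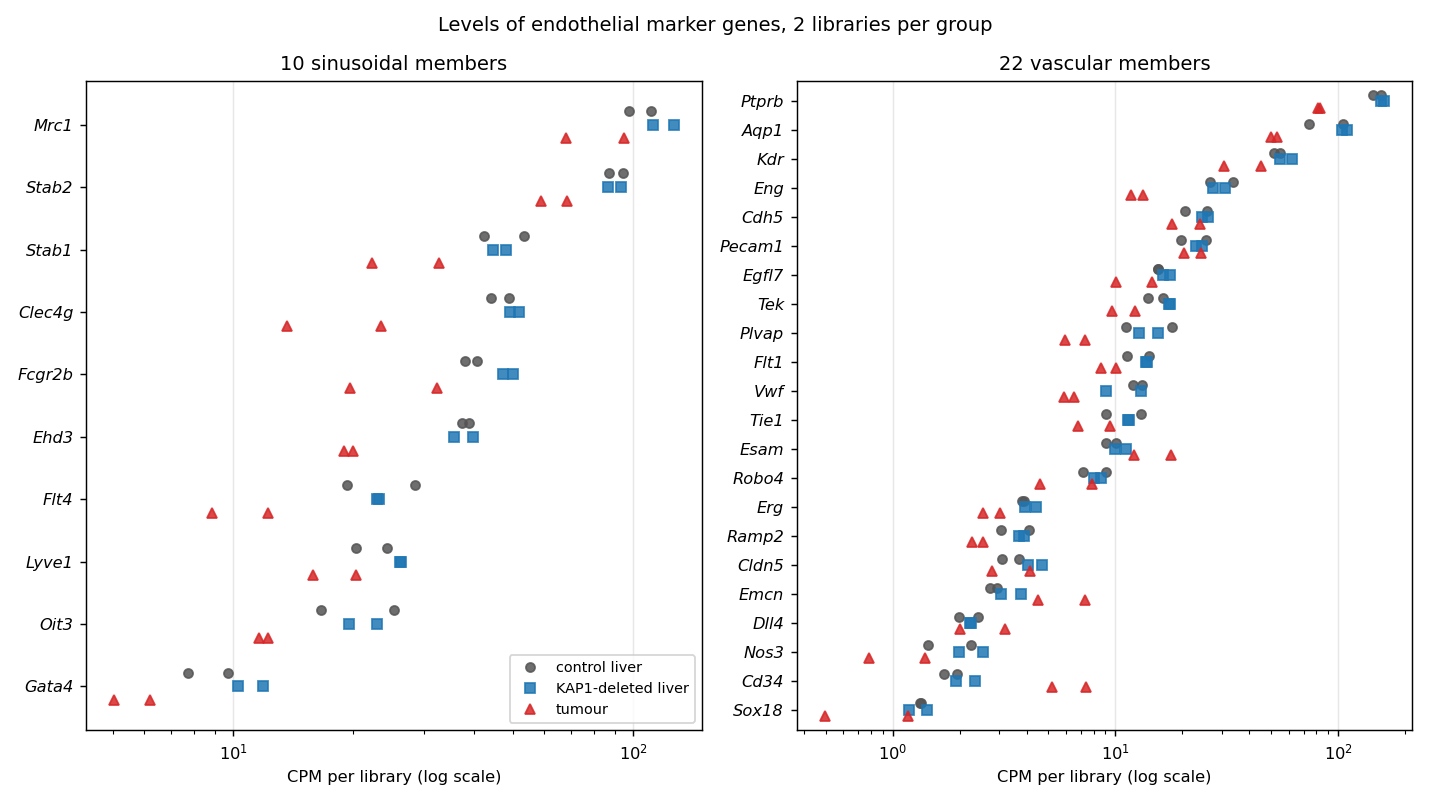
Level of each of the 32 markers in every library (CPM, log axis), with sinusoidal markers on the left, vascular markers on the right and symbols for control liver, KAP1-deleted liver and tumour. Tumour symbols lie to the left of all 4 liver symbols for 9 of 10 sinusoidal and 13 of 22 vascular markers, and to the right for Emcn, Esam and Cd34 (3 of 22), where 24.7% of all genes tested lie below and 20.3% above.

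Deletion of KAP1 in hepatocytes was compared with the control first. None of the 32 markers was called different between KAP1-deleted and control liver by edgeR (adjusted p under 0.05), with a background of 0.336% of all genes called (0.239% higher and 0.0968% lower), and none had an unadjusted p under 0.05. DESeq2 and limma-voom called 0 markers as well. The median log2 difference was 0.07 over sinusoidal markers and 0.12 over vascular markers, against 0.0032 over all genes tested. In bulk tissue, fewer cells of a type and less RNA per cell cannot be told apart, here and in all comparisons that follow.

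Individual markers of the non-tumour livers stood close together. Stab2, a scavenger receptor that takes up hyaluronan, stood at 87.1 and 94.3 CPM in the control livers and 86.6 and 93.3 CPM in the KAP1-deleted livers. These ranges overlap almost fully, and the log2 difference was -0.01 ± 0.17 (SE). The differences farthest from 0 were those of the tight-junction gene Cldn5, at 0.37 ± 0.27, and the transcription factor gene Gata4, at 0.34 ± 0.22, each with an edgeR adjusted p of 1. Both KAP1-deleted livers lay above both controls for 5 of 10 sinusoidal and 5 of 22 vascular markers, with a background of 16.7% of all genes, and both lay below for 0 of 32, with a background of 14.6%. Among the endothelial lists that hold no marker of the 32, the smallest adjusted p was that of Nrp2, a co-receptor for VEGF-C. Its level was 25.3 and 26.3 CPM in the control livers and 12.1 and 12.2 CPM in the KAP1-deleted livers (log2 difference -1.09 ± 0.17, edgeR adjusted p = 0.0524), which is not a call.

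The tumours were then set against the KAP1-deleted liver tissue from those same mice. Of the 10 sinusoidal markers 5 were lower in tumour and 0 were higher, where 11.4% of all genes were called, 6.64% lower and 4.8% higher. The 5 were Clec4g, Ehd3, Fcgr2b, Gata4 and Flt4. The median log2 difference of the 10 was -0.87, or -0.34 when scaled to library totals, against -0.034 over all genes tested. The number called lower fell when either KAP1-deleted liver or either tumour was left out, as that of all genes did. Over all omissions of 1 library the median of the 10 ran from -0.92 to -0.85. With the main scaling (TMM), both tumours lay below both KAP1-deleted livers for 10 of 10 sinusoidal markers, where 34.8% of all genes did so. The within-mouse difference on that scaling was therefore below 0 in both mice for each of the 10, which adds no separate support.

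Clec4g encodes LSECtin, a lectin of sinusoidal endothelium. It stood at 48.99 and 44.0 CPM in the control livers, 49.3 and 51.95 CPM in the KAP1-deleted livers and 13.7 and 23.5 CPM in tumours. Both tumours were far below all 4 livers, and the groups do not overlap. The difference from KAP1-deleted liver was -1.45 ± 0.26 on the log2 scale, or 2.73-fold lower (edgeR adjusted p = 0.0131). It was called under each of the 16 alternatives run, with a highest adjusted p of 0.0481.

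Ehd3 encodes a protein of endocytic membrane traffic. Its level was 37.4 and 38.8 CPM in the control livers, 35.7 and 39.7 CPM in the KAP1-deleted livers and 18.9 and 19.995 CPM in tumours. The livers of both kinds shared 1 range and the tumours sat close together well under it. The log2 difference was -0.95 ± 0.16 (edgeR adjusted p = 0.0111), and it was not called without KAP1-deleted liver 2 (adjusted p = 0.0893) or without tumour 1 (0.0718).

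Flt4, the receptor for VEGF-C that sinusoidal as well as lymphatic endothelium makes, was at 19.3 and 28.4 CPM in the control livers, 22.96 and 23.1 CPM in the KAP1-deleted livers and 12.2 and 8.84 CPM in tumours. Tumours did not overlap the livers, although the control livers differed among themselves. Its log2 difference was -1.13 ± 0.24 (edgeR adjusted p = 0.0257). The call was lost without KAP1-deleted liver 1 (adjusted p = 0.0654) or 2 (0.0836), and without tumour 1 (0.0597) or 2 (0.123).

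Gata4, a transcription factor required for the sinusoidal type of endothelium, was at 7.71 and 9.73 CPM in the control livers, 10.3 and 11.9 CPM in the KAP1-deleted livers and 5.04 and 6.21 CPM in tumours. Tumours were lowest and KAP1-deleted livers highest. The log2 difference between tumour and KAP1-deleted liver was -0.98 ± 0.22 (edgeR adjusted p = 0.0280), which was lost without KAP1-deleted liver 1 (adjusted p = 0.0743) or 2 (0.184), and without tumour 1 (0.135) or 2 (0.0589).

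Fcgr2b, the inhibitory Fc receptor with which sinusoids take up immune complexes, stood at 40.8 and 37.98 CPM in the control livers, 50.1 and 47.2 CPM in the KAP1-deleted livers and 19.6 and 32.3 CPM in tumours. Tumour 2 lay nearer to the control livers than to tumour 1. The log2 difference was -0.91 ± 0.24 with an edgeR adjusted p of 0.0482, at the edge of the threshold, and 9 of 16 alternatives lost it. Left-out libraries that did so were control liver 2 (adjusted p = 0.0510), KAP1-deleted liver 1 (0.137) or 2 (0.134) and tumour 1 (0.169).

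The other 5 sinusoidal markers were not called. Log2 differences from KAP1-deleted liver were -0.76 ± 0.22 for the scavenger receptor gene Stab1 (edgeR adjusted p = 0.0685), -0.83 ± 0.23 for Oit3 (0.0547), -0.55 ± 0.21 for the mannose receptor gene Mrc1 (0.133) and -0.50 ± 0.17 for Stab2 (0.0993). Stab2 stood at 68.2 and 58.7 CPM in tumours, and its log2 difference ran from -0.62 to 0.036 over the alternative settings. Lyve1, a hyaluronan receptor of sinusoidal and lymphatic endothelium, was at 20.3 and 24.2 CPM in the control livers, 26.2 and 26.4 CPM in the KAP1-deleted livers and 15.8 and 20.3 CPM in tumours. Tumour 2 reached the lower control for Lyve1, and the difference from KAP1-deleted liver was -0.54 ± 0.19 (adjusted p = 0.107). With the mouse as a block, Stab1 (edgeR adjusted p = 0.0111) and Oit3 (0.00744) were called lower as well. That fit called 2318 of all 17558 genes lower, against 1165 in the main fit.

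**Figure D2:**
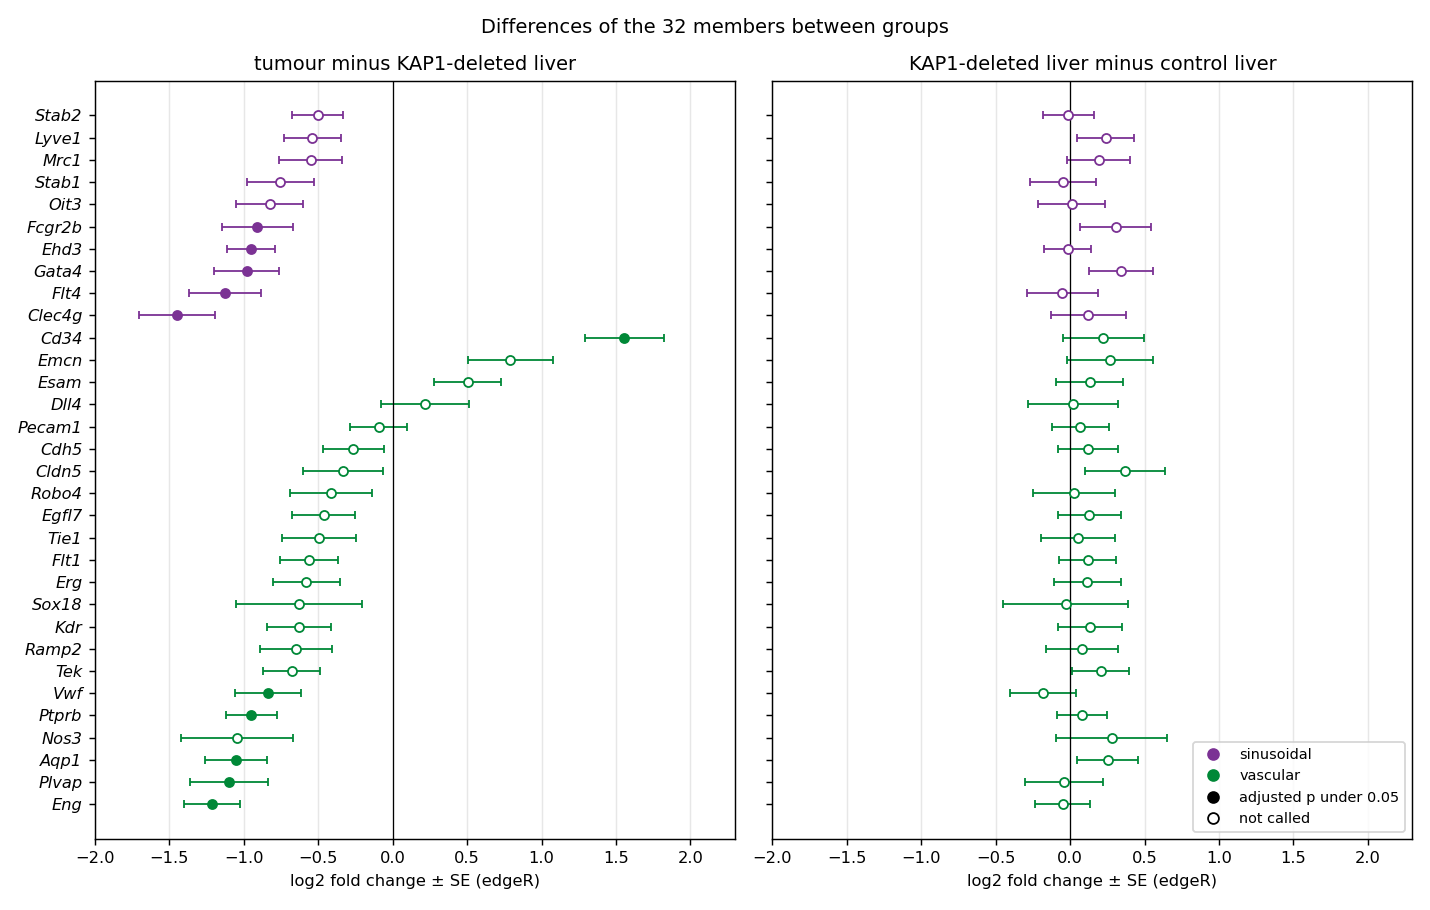
Log2 fold change of each marker with its SE (edgeR, 2 libraries per group), for tumour against KAP1-deleted liver on the left and KAP1-deleted against control liver on the right, with filled points where the adjusted p is under 0.05. On the left 10 filled points lie below 0 and Cd34 alone lies filled above 0, while the right panel has none filled.

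Vascular markers were called in both directions, but the share called higher was near that of all genes. For 17 of 22 the within-mouse difference was below 0 in both mice, but no share over all genes was computed for this count. Of the 22, 5 were lower in tumour than in KAP1-deleted liver (Eng, Vwf, Ptprb, Plvap and Aqp1) and 1 was higher (Cd34), beside the same backgrounds of 6.64% and 4.8%. Their median log2 difference was -0.57, or -0.035 when scaled to library totals. Both tumours lay below both KAP1-deleted livers for 16 of 22 and above them for 3 of 22, where 34.8% and 28.7% of all genes did so. With the mouse as a block 8 were lower, with Kdr (edgeR adjusted p = 0.0262), Tek (0.0220) and Nos3 (0.0137) added. In that fit 2318 of all 17558 genes were lower, against 1165 in the main fit. The number of vascular markers called lower fell when either KAP1-deleted liver or either tumour was left out, as that of all genes did. Over all omissions of 1 library the vascular median ran from -0.76 to -0.34. Cd34 was not called without KAP1-deleted liver 1 or 2 or without tumour 1.

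The junction proteins that define endothelium gave no call. Pecam1, an adhesion molecule of all endothelium, stood at 19.6 and 25.7 CPM in the control livers, 23.0 and 24.5 CPM in the KAP1-deleted livers and 24.1 and 20.4 CPM in tumours. All 3 groups overlap, and the log2 difference between tumour and KAP1-deleted liver was -0.10 ± 0.19 (edgeR adjusted p = 0.778). Cdh5, VE-cadherin of the adherens junction, stood at 20.6 and 25.9 CPM in the control livers, 26.0 and 24.5 CPM in the KAP1-deleted livers and 24.0 and 18.0 CPM in tumours. Both tumours lay below both KAP1-deleted livers, where 34.8% of all genes did so, and tumour 1 lay within the range of the controls. The log2 difference between tumour and KAP1-deleted liver was -0.27 ± 0.20 (edgeR adjusted p = 0.424). Sign changes between scalings were seen for both genes, so no direction is given for them. Cldn5, Dll4, Egfl7, Robo4, Stab2 and Tie1 also changed sign under some setting, so the signs printed for them hold for the main fit only.

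Eng, endoglin, is a co-receptor for the ligands BMP9 and BMP10. It was at 26.7 and 33.7 CPM in the control livers, 27.3 and 31.1 CPM in the KAP1-deleted livers and 13.3 and 11.8 CPM in tumours. Both tumours were close to each other and far below every liver. In edgeR the log2 difference was -1.22 ± 0.19, or 2.32-fold lower (edgeR adjusted p = 0.00872). Without tumour 2 the adjusted p was 0.0513.

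Ptprb, a receptor phosphatase of endothelium that restrains TIE2, stood at 143 and 157 CPM in the control livers, 162 and 156 CPM in the KAP1-deleted livers and 81.4 and 83.1 CPM in tumours. The tumours were close to each other and did not overlap the livers. Against KAP1-deleted liver the log2 difference was -0.95 ± 0.17 (edgeR adjusted p = 0.0139), lost without KAP1-deleted liver 1 (adjusted p = 0.0777) or 2 (0.0781), or without tumour 1 (0.0829) or 2 (0.0629).

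Plvap encodes the diaphragm protein of fenestrae and caveolae. Its level was 11.1 and 17.9 CPM in the control livers, 12.8 and 15.5 CPM in the KAP1-deleted livers and 5.95 and 7.27 CPM in tumours. Again both tumours were below all livers. Its log2 difference was -1.10 ± 0.26 (edgeR adjusted p = 0.0356), lost without KAP1-deleted liver 1 (adjusted p = 0.0590) or 2 (0.171), or without tumour 1 (0.176) or 2 (0.0926).

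Aqp1 stood at 74.2 and 105 CPM in the control livers, 104 and 109.7 CPM in the KAP1-deleted livers and 50.2 and 52.96 CPM in tumours. Control liver 1 lay between the other livers and the tumours, which did not overlap any liver. From KAP1-deleted liver, tumours differed by -1.05 ± 0.21 on the log2 scale (edgeR adjusted p = 0.0188), lost without KAP1-deleted liver 1 (adjusted p = 0.0546) or 2 (0.0835), or without tumour 1 (0.109) or 2 (0.0787). Of the bile duct markers 0 of 5 tested were called, where 11.4% of all genes were. Their median log2 difference from KAP1-deleted liver was still -1.70. Both tumours lay below both KAP1-deleted livers for 5 of 5, where 34.8% of all genes did so. The summed level of these 5 was 18.5 to 34.5 CPM in the control livers, 30.7 to 37.2 CPM in the KAP1-deleted livers and 5.10 to 23.1 CPM in tumours. The part of bile duct cells in the result for Aqp1 was not tested.

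Vwf, the clotting factor stored in endothelium of larger vessels, was at 11.95 and 13.2 CPM in the control livers, 13.1 and 9.11 CPM in the KAP1-deleted livers and 6.50 and 5.90 CPM in tumours. The KAP1-deleted livers differed from each other more than the controls did. The log2 difference was -0.84 ± 0.22 with an edgeR adjusted p of 0.0497, and 9 of 16 alternatives lost it. Among them were fits without KAP1-deleted liver 1 (adjusted p = 0.325) or 2 (0.0667) and without tumour 1 (0.142) or 2 (0.173).

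Cd34, the sialomucin typical of continuous capillaries, was the marker called higher. It stood at 1.70 and 1.95 CPM in the control livers, 1.93 and 2.35 CPM in the KAP1-deleted livers and 7.40 and 5.20 CPM in tumours, from 59 to 115 counts per liver and 536 and 273 counts in tumours. Both tumours lay well above all 4 livers. The difference from KAP1-deleted liver was 1.56 ± 0.27 on the log2 scale, or 2.94-fold higher (edgeR adjusted p = 0.0122). It was not called without KAP1-deleted liver 1 (adjusted p = 0.0774) or 2 (0.0508), or without tumour 1 (0.0622).

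The other genes listed here as capillary-type did not follow Cd34 as a list. The list of 8 (Cd34, Plvap, Vwf, Emcn, Cldn5, Esam, Aqp1 and Sox18) had 1 called higher and 3 called lower. Its median log2 difference was -0.48 (0.068 when scaled to library totals). The 3 lower were Plvap, Vwf and Aqp1. No gene of it was called without KAP1-deleted liver 1 or 2 or without tumour 1, and without tumour 2 it had 1 higher and 0 lower in edgeR. Emcn, the sialomucin endomucin, was at 2.94 and 2.73 CPM in the control livers, 3.07 and 3.77 CPM in the KAP1-deleted livers and 7.32 and 4.49 CPM in tumours. Both tumours lay above all livers, while the log2 difference from KAP1-deleted liver was 0.79 ± 0.28 (edgeR adjusted p = 0.111). Esam, a tight-junction adhesion molecule, lay above all livers in both tumours as well, at 12.2 and 17.7 CPM against 9.12 to 11.1 CPM, with a difference of 0.50 ± 0.22 (edgeR adjusted p = 0.180). Cldn5 stood at -0.33 ± 0.27, and Sox18, a transcription factor of vessel development, stood at -0.63 ± 0.42.

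Of the VEGF and angiopoietin receptors among the 32, Flt4 is described above, and Kdr, Flt1, Tek and Tie1 were not called against KAP1-deleted liver without the mouse block. Kdr, the main VEGF receptor, was at 55.2 and 51.6 CPM in the control livers, 62.2 and 54.8 CPM in the KAP1-deleted livers and 44.96 and 30.6 CPM in tumours. Tumours lay below all livers but differed from each other by more than the livers did, and the log2 difference was -0.63 ± 0.21 (edgeR adjusted p = 0.0979). Values were -0.56 ± 0.19 for the decoy VEGF receptor gene Flt1, -0.68 ± 0.19 for the angiopoietin receptor gene Tek and -0.50 ± 0.25 for its partner Tie1 (edgeR adjusted p = 0.101, 0.0592 and 0.229). With the mouse as a block Kdr (adjusted p = 0.0262) and Tek (0.0220) were called lower.

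The remaining 6 vascular markers had adjusted p-values from 0.114 to 0.665 in edgeR. The Notch ligand gene Dll4 was at 0.22 ± 0.30, with tumour 1 above all 4 livers and tumour 2 within their range. Differences were -0.46 ± 0.21 for the secreted factor gene Egfl7, -0.41 ± 0.28 for the guidance receptor gene Robo4, -0.65 ± 0.24 for the adrenomedullin receptor component Ramp2, -1.05 ± 0.38 for the endothelial nitric oxide synthase gene Nos3 and -0.58 ± 0.22 for the ETS factor gene Erg. Ramp2 shares 33.4% of its exon bases with Vps25 on the same strand, Egfl7 shares 9.41% with same-strand genes, and Nos3 shares 32.3% with genes on the opposite strand. No source used here gives the strand setting of the counting, so these 3 levels are uncertain.

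The scaling bears on every tumour comparison. TMM factors were 1.31 and 1.22 in tumours against 0.864 to 0.948 in livers, and scaling to library totals moved the median of all genes by over 0.1, to 0.50 in tumour against KAP1-deleted liver. Under library totals, an alternative chosen after seeing the data, 1 sinusoidal marker stayed lower (Clec4g, log2 difference -0.93), the sinusoidal median was -0.34 and the vascular median was -0.035, while Cd34, Emcn and Esam were called higher. No called marker changed sign. Over all genes that scaling gave 4317 higher and 520 lower, against 842 and 1165 with TMM and 970 and 896 with upper-quartile scaling. Against control liver it gave 3962 higher and 626 lower, against 1080 and 1363 with TMM.

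Differences between markers of 1 library do not depend on that scaling. The mean log2 CPM of the 10 sinusoidal markers exceeded that of the 22 vascular markers by 1.87 and 1.80 in the controls, 1.81 and 1.87 in the KAP1-deleted livers and 1.17 and 1.61 in tumours. All 4 livers lay close together and both tumours lay below them. Against the 8 capillary-type markers the difference in mean log2 CPM was 2.43 and 2.38, 2.38 and 2.41, and 1.47 and 1.89 in the same order. In the main fit 3 of those 8 lay above 0 in tumour against KAP1-deleted liver (Cd34 at 1.56, Emcn at 0.79 and Esam at 0.50). The other 5 lay below 0, from -1.10 for Plvap to -0.33 for Cldn5, so the 8 did not shift as 1 group. Both lists were chosen with earlier results of these data known. With 2 libraries against 2 these shifts have no test here.

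Pecam1 and Cdh5, chosen as a reference after their values were seen, allow such a difference for single markers. Relative to their mean log2 CPM, Clec4g stood at 1.28 and 0.77 in the controls, 1.01 and 1.08 in the KAP1-deleted livers and -0.81 and 0.29 in tumours. Eng stood at 0.41 and 0.39, 0.16 and 0.34, and -0.85 and -0.70 on that scale. Cd34 moved the other way, from -3.53 and -3.70 in the controls and -3.64 and -3.36 in the KAP1-deleted livers to -1.70 and -1.87 in tumours. Emcn went from between -3.22 and -2.69 in the 4 livers to -1.71 and -2.08. For each of these 4 the tumours did not overlap the livers. All 4 already lay apart from every liver in CPM, and the reference was chosen with its values known. The non-overlap is therefore no separate support, and no share over all genes is given on this scale.

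**Figure D3:**
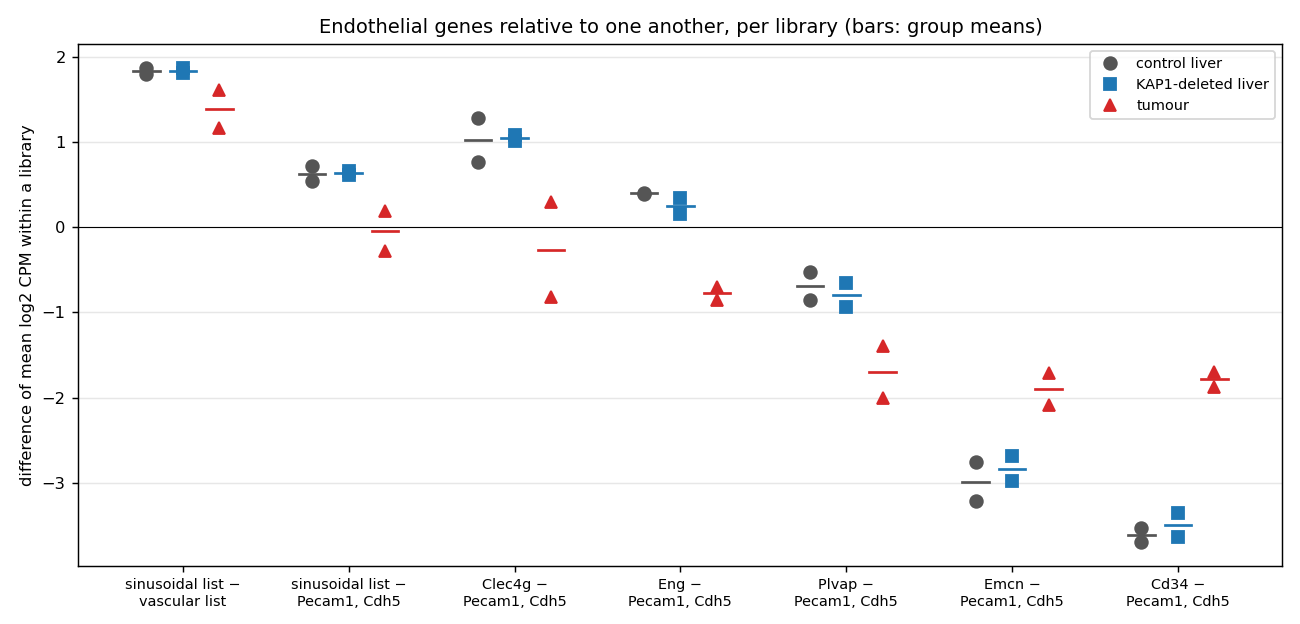
Difference of mean log2 CPM within each library, between the sinusoidal list and the vascular list or Pecam1 and Cdh5, and between single markers and Pecam1 and Cdh5; points are libraries and bars are means of 2 libraries. Tumours lie below the livers for the sinusoidal list, Clec4g, Eng and Plvap, and above them for Emcn (-1.71 and -2.08) and Cd34 (-1.70 and -1.87).

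Tumours were also set against control liver, a comparison that shares its tumour libraries with the one above. Here 3 of 10 sinusoidal markers were lower (Clec4g, Ehd3 and Flt4) and 0 were higher, with 13.9% of all genes called, 7.76% lower and 6.15% higher. Of the 22 vascular markers 5 were lower (Eng, Vwf, Ptprb, Plvap and Aqp1) and 2 were higher (Cd34 and Emcn). The number of sinusoidal markers lower was 5 without control liver 1 and 1 without tumour 1, and that of vascular markers lower was 2 without control liver 2 and 1 without tumour 1 or 2. The number of vascular markers higher was 1 when any library but tumour 2 was left out. The sinusoidal median log2 difference was -0.72 (-0.25 under library totals), and the vascular median was -0.46, which turned to 0.014 under library totals, where the median of all genes was 0.45 instead of -0.021. Both tumours lay below both control livers for 9 of 10 sinusoidal and 13 of 22 vascular markers, where 29.9% of all genes did, and above them for 3 of 22, where 26.5% did.

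Values of the called markers were close to those against KAP1-deleted liver. Eng was lower by a log2 difference of -1.27 ± 0.19 (edgeR adjusted p = 0.00587) and Cd34 was higher by 1.78 ± 0.27 (0.00621), and each was called under every alternative that tested it. Clec4g stood at -1.33 ± 0.26 (edgeR adjusted p = 0.0149, or 0.0523 without tumour 1) and Ehd3 at -0.97 ± 0.16 (0.00854, or 0.0587 without tumour 1). Emcn was higher by 1.06 ± 0.29 with an edgeR adjusted p of 0.0460, which was lost without control liver 1 (0.0793) or 2 (0.147), KAP1-deleted liver 1 (0.0641) or 2 (0.0643) or tumour 1 (0.197).

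Each of the other 5 calls against control liver was lost in some fit with a library left out. Flt4 stood at -1.18 ± 0.24 (edgeR adjusted p = 0.0193, or 0.0602 without control liver 2 and 0.104 without tumour 2). Ptprb was at -0.87 ± 0.17 (edgeR adjusted p = 0.0161, or 0.0881 and 0.0732 without tumour 1 or 2). Vwf was at -1.02 ± 0.22 (edgeR adjusted p = 0.0236), with 0.0658 without control liver 2 and 0.0866 and 0.108 without tumour 1 or 2. For Plvap, at -1.14 ± 0.26 (edgeR adjusted p = 0.0286), the same omissions gave 0.101, 0.149 and 0.0802. Aqp1, at -0.80 ± 0.21 (edgeR adjusted p = 0.0396), lost its call when any library but control liver 1 was left out, with adjusted p from 0.0573 to 0.172. Fcgr2b and Gata4, which were lower than in KAP1-deleted liver, stood at -0.60 ± 0.24 and -0.64 ± 0.22 against control liver (edgeR adjusted p = 0.136 and 0.0921).

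Further endothelial genes were read from lists that do not hold the 32. Some genes stand on more than 1 of these lists and are counted in each. Of 14 other sinusoidal genes 5 were lower in tumour than in KAP1-deleted liver and 0 were higher, beside 6.64% of all genes called lower and 4.8% higher. Bmp2, an iron-regulating signal of sinusoids, was at 18.4 and 10.1 CPM in the control livers, 22.7 and 15.4 CPM in the KAP1-deleted livers and 5.69 and 6.09 CPM in tumours (log2 difference -1.69 ± 0.32, edgeR adjusted p = 0.0162). Wnt2, an endothelial signal to hepatocytes near the central vein, was at 4.79 and 6.25, 6.59 and 7.22, and 1.88 and 2.23 CPM in the same order (log2 difference -1.75 ± 0.24, edgeR adjusted p = 0.00546). The tumours lay below all livers for both genes. Without tumour 1 or 2 the adjusted p of Bmp2 was 0.0998 or 0.0724, while that of Wnt2 stayed under 0.05 whichever library was left out. Counts of lower genes on this list ran from 1 (without tumour 1) to 9 (without control liver 1), with 8 without control liver 2, 3 without KAP1-deleted liver 1 or tumour 2, and 10 with the mouse as a block.

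Central-vein endothelium had 4 of 8 genes lower, Wnt2 among them, and 1 higher, beside the same 6.64% and 4.8% of all genes. Rspo3, which amplifies Wnt signals, stood at 7.25 and 5.98 CPM in the control livers, 8.61 and 8.47 CPM in the KAP1-deleted livers and 2.09 and 3.83 CPM in tumours (log2 difference -1.54 ± 0.30, edgeR adjusted p = 0.0186), but 0.0513 without KAP1-deleted liver 2 and 0.0591 without tumour 1. Fabp4, a fatty acid binding protein of capillary endothelium and fat cells, was higher, at 18.9 and 13.5 CPM in tumours against 6.93 to 9.20 CPM in livers (log2 difference 0.996 ± 0.24, edgeR adjusted p = 0.0355). Its call was lost without KAP1-deleted liver 1 (0.171) or 2 (0.134) or tumour 1 (0.169). The count of lower genes was 2 without KAP1-deleted liver 1, and 1 without KAP1-deleted liver 2 or without tumour 1. Portal and arterial endothelium had 3 of 9 lower and 0 higher, beside the same shares, led by the connexin gene Gja4 at 3.63 and 4.05 CPM in the KAP1-deleted livers and 0.994 and 1.12 CPM in tumours (log2 difference -1.86 ± 0.25, edgeR adjusted p = 0.00503). That list had 1 lower without either KAP1-deleted liver or without tumour 2, and 2 without tumour 1.

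Of the genes of sprouting and tumour endothelium, 12 of 14 were tested. In tumour 5 were higher and 0 were lower, beside 4.8% of all genes called higher and 6.64% lower. One of the 5, the peptide ligand gene Apln, stood at 0.029 to 0.045 CPM in the 4 livers and at 0.911 and 0.267 CPM in tumours, so it passed the filter on low counts through the tumours alone and had to differ. Esm1, a proteoglycan gene of tip cells, was at 0.520 and 0.628 CPM in the control livers, 0.840 and 1.59 CPM in the KAP1-deleted livers and 12.0 and 4.57 CPM in tumours. Both tumours lay above every liver and tumour 1 was far above tumour 2. The log2 difference was 2.77 ± 0.51 (edgeR adjusted p = 0.0163), but the adjusted p was 0.162 with the mouse as a block. Leaving out control liver 1 gave 0.0550, control liver 2 gave 0.0580, KAP1-deleted liver 1 gave 0.0670 and tumour 1 gave 0.0622. Angpt2, the ligand that destabilises TIE2 signalling, stood at 1.34 and 1.80 CPM in the KAP1-deleted livers and 3.29 and 3.98 CPM in tumours (log2 difference 1.21 ± 0.28, edgeR adjusted p = 0.0308). It was lost without KAP1-deleted liver 1 (0.210) or 2 (0.110) and without tumour 1 (0.0733) or 2 (0.115). Without tumour 1 the list had 0 calls in edgeR, without either KAP1-deleted liver 1, and without tumour 2 it had 3.

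Ligands of the receptors above were read as well, with 1 of 8 tested higher (Angpt2, counted above as well) and 2 lower, beside 4.8% and 6.64% of all genes. Gdf2, which encodes BMP9, a ligand of the ENG receptor complex made by stellate cells, was at 16.6 and 23.4 CPM in the control livers, 16.7 and 20.98 CPM in the KAP1-deleted livers and 3.47 and 7.20 CPM in tumours. Tumours lay below all livers (log2 difference -1.83 ± 0.35, edgeR adjusted p = 0.0182), with 0.0819 without KAP1-deleted liver 2 and 0.0645 without tumour 1. Bmp10 was lower too, at -1.77 ± 0.39 (edgeR adjusted p = 0.0264), with 0.0752 or 0.0849 without KAP1-deleted liver 1 or 2 and 0.0898 without tumour 1. Vegfa was at 42.5 and 35.4 CPM in the KAP1-deleted livers and 42.2 and 27.7 CPM in tumours, which overlap (log2 difference -0.15 ± 0.27, edgeR adjusted p = 0.747). Of 28 co-receptor, Notch pathway and transcription factor genes 3 were lower (Nrp2 among them) and 0 higher, and of 20 pan-endothelial genes outside the 32 markers 2 were lower and 0 higher. These shares are near the 11.4% of all genes called, and the lists have genes in common, with the lower call of Clec14a counted in both. Both lists had 0 calls by edgeR without KAP1-deleted liver 1 or 2 or without tumour 2, and without tumour 1 they had 0 and 1. With the mouse as a block they had 5 lower each. For the ligand list the number lower was 1 without KAP1-deleted liver 1, and 0 by edgeR without KAP1-deleted liver 2 or tumour 1.

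Markers of other liver cells moved between the same groups. Of 16 Kupffer cell and macrophage genes 7 were lower in tumour than in KAP1-deleted liver, beside 6.64% of all genes. With the main scaling 16 of 16 had a log2 difference below 0, as did 9159 of all 17558 genes. The summed level of the 16 was 782 to 818 CPM in the control livers, 839 to 846 CPM in the KAP1-deleted livers and 387 to 539 CPM in tumours. The Kupffer cell receptor gene Clec4f was at 149 and 130.5 CPM in the KAP1-deleted livers and 38.5 and 33.0 CPM in tumours, and none of the 16 was at 0 in any library. Without KAP1-deleted liver 1 the list had 4 lower. Macrophages also make Stab1, Mrc1, Fcgr2b and Lyve1, and without these 4 the sinusoidal median was -0.97 against KAP1-deleted liver and -0.89 against control liver. The excess of the other 6 over the vascular list in mean log2 CPM was 1.48 to 1.62 in the 4 livers and 0.81 and 1.18 in tumours.

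Stellate cell and fibroblast genes had 4 of 14 lower, beside the same 6.64%, with a summed level of 558 to 583 CPM in the control livers, 514 to 624 CPM in the KAP1-deleted livers and 256 to 439 CPM in tumours. The number lower was 2 without KAP1-deleted liver 2 or tumour 1 and 9 without tumour 2, and it was 7 with the mouse as a block. Of 10 hepatocyte genes 4 were lower, beside the same 6.64%, and the number changed when either tumour was left out. With the block it was 7, where 2318 of all 17558 genes were lower. Of 5 lymphatic endothelium genes tested (of 6 listed) 1 was lower, Sema3d, beside the same 6.64%. Its call was lost without tumour 1. The summed level of the 5 was 331 to 343 CPM in the control livers, 284 to 287 CPM in the KAP1-deleted livers and 234 to 299 CPM in tumours. Most of it came from Prox1, which hepatocytes also make, and Reln. Pdpn, a defining lymphatic marker, was at 0.275 CPM or less in every library and at 0 in tumour 2. Platelet genes had 0 of 3 tested called, where 11.4% of all genes were, at a summed level of 1.51 to 3.12 CPM over all libraries. Red cell genes had 1 of 5 higher and 1 lower, beside 4.8% and 6.64% of all genes. The lower one, the globin gene Hba-a1, lost its call when any library but KAP1-deleted liver 1 was left out (edgeR adjusted p = 0.0801 to 0.148). The part of these other cells in the differences of the 32 markers was not tested.

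**Figure D4:**
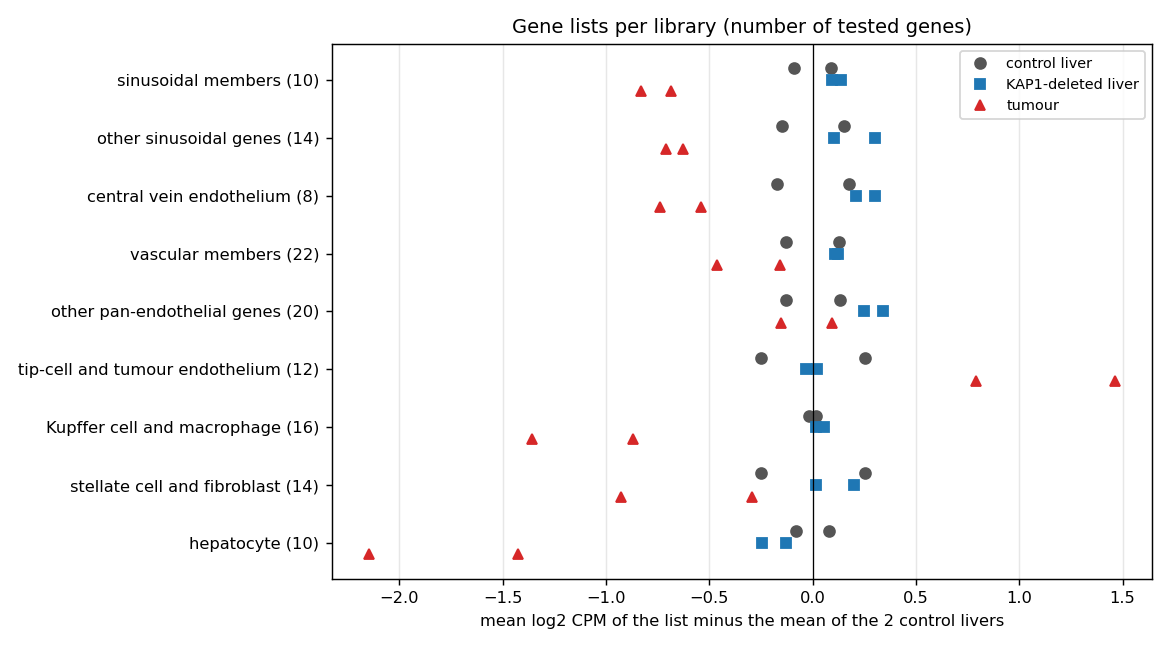
Mean log2 CPM of each gene list in every library, minus the mean of the 2 control livers, with the number of genes tested in brackets. Sinusoidal markers lie at -0.83 and -0.69 in tumours and vascular markers at -0.16 and -0.46. Tip-cell and tumour endothelium genes lie at 1.46 and 0.79 and hepatocyte genes at -2.15 and -1.43. The tip-cell list includes Apln, which passed the filter on low counts through the tumours alone and so raises its tumour values.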

How the data were processed

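A stranded kit turned total RNA into libraries, per the labels' protocols. The deposited files hold whole-number counts of reads per Ensembl gene, made by the authors with TopHat and HTSeq 0.6.1 on mm9, per the submitters' processing notes. No source used here gives the gene annotation or the strand setting. Counts not tied to a gene were dropped. They were 27.6% and 20.9% of counted reads in the control livers, 24.8% and 20.9% in the KAP1-deleted livers and 36.7% and 33.1% in tumours. This share was thus higher in both tumours than in any liver. Its bearing on the tumour comparisons was not tested.

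Symbols of the GRCm38 annotation were matched by identifier (32919 of 37991 genes). Genes were filtered with filterByExpr (minimum count 10, minimum total 15), scaled with TMM and tested with edgeR 4.0.16 in R 4.3.3 by a robust quasi-likelihood fit of 1 mean per group to all 6 libraries. The fit had 3 residual degrees of freedom and a common BCV (biological coefficient of variation) of 0.230. Two-sided p-values were adjusted with the Benjamini-Hochberg method over 17558 genes, with a threshold of 0.05. SE is the log2 fold change over the square root of F, and log2 CPM used a prior count of 2. All libraries carry 1 batch label. The labels give each library its own mouse within a group, so the spread within a group includes that between mice. Counts of replicates differed beyond sampling noise, at 90.8 to 352 for chi-square over its degrees of freedom. Scripts were tested on simulated data.

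By the mouse codes, each tumour and KAP1-deleted liver of the same number came from the same mouse. Their deviations from group means correlated with r = 0.185, which is 1 value, since with 2 libraries per group both mice give the same one. The fit with the mouse as a block is printed beside a result where it changes a call. Over all genes it called 1571 higher and 2318 lower, against 842 and 1165 in the main fit. Calls gained with the block are thus not particular to the markers or lists.

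The text accounts for all 32 markers. It describes in detail each marker called in any comparison, with Clec4g, Stab2, Lyve1, Pecam1, Cdh5, Kdr, Cd34, Plvap and Vwf, and it names up to 4 genes of smallest adjusted p from each other list. Vegfa falls outside that rule and was named after its values were seen. Members and lists were chosen with earlier results of these data known. Other settings tried were upper-quartile scaling, size factors of DESeq2, omission of the 20 most abundant genes, no filter or a stricter one, DESeq2 1.42.0, limma-voom 3.58.1, only the 4 libraries compared, each library left out, the mouse block and library totals.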

Additional observations from a re-analysis of the deposited data

How the results depend on the processing

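With 2 libraries per group, leaving out 1 leaves a lone sample whose spread is assumed equal to that of the others. The number of all genes called also changed with each omission. In tumour against KAP1-deleted liver it fell without either KAP1-deleted liver or either tumour and rose without either control. Calls lost or gained there, on any list, are thus not particular to the markers. In tumour against KAP1-deleted liver, these omissions gave 1 to 7 sinusoidal markers lower, 0 to 1 vascular higher and 0 to 6 vascular lower, with medians of -0.92 to -0.85 and -0.76 to -0.34. Against control liver they gave 1 to 5, 1 to 2 and 1 to 5, with medians of -0.89 to -0.55 and -0.65 to -0.24. In KAP1-deleted against control liver the medians were 0.035 to 0.17 and -0.018 to 0.23, with 0 markers called.

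Other settings moved these values as follows. Against KAP1-deleted liver, vascular markers were 2 higher and 8 lower with no filter on low counts, 0 higher among genes with mean CPM of 5 or more, and 8 lower with the mouse as a block, which lost no call of a marker. Library totals gave 1 sinusoidal lower and 3 and 0 vascular higher and lower, with medians of -0.34 and -0.035. Against control liver, 5 sinusoidal markers were lower with no filter and with DESeq2. Vascular markers were 0 higher among genes with mean CPM of 5 or more, and 1 higher with limma-voom or with only the 4 libraries compared. Library totals gave 1 sinusoidal lower, 3 vascular higher and 1 lower, with medians of -0.25 and 0.014. Without macrophage-shared genes the sinusoidal median was -0.89. No call reversed. Uncalled markers with a sign change under some setting numbered 16 between the non-tumour livers, 8 for tumour against KAP1-deleted liver and 11 for tumour against control. The causes were not tested. Sox18, Nos3 and Dll4 have the fewest counts, which limits their precision.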
